A study of Mus musculus with 39 samples.

Results

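The question of this comparison was whether antibiotic treatment changed what a dose of leptin given into the brain did to gene expression in the duodenum. It uses 24 of the 39 RNA sequencing libraries of the study, those whose library names begin with MT, with 6 libraries in each of 4 groups. The leptin effect on antibiotic (Leptin-antibiotic minus Saline-antibiotic, replicates 1 to 6) was set against the leptin effect on plain water (Leptin-water, replicates 8 to 13, minus Saline-water, replicates 9 to 14). The difference of both effects, on the log2 scale, is positive where the leptin effect was more positive on antibiotic. All animals were wild-type male C57BL/6 mice aged 8 weeks with a cannula in the lateral ventricle of the brain. For 48 h their drinking water was plain or held 2 antibiotics, ampicillin at 1 g/L plus neomycin at 0.5 g/L. Leptin (3 µg) or saline went into the ventricle 3 days after the cannula was placed. Food was withheld for 2 h, and duodenum was collected 2 h after the injection. Both arms therefore share surgery, cannula and food deprivation, and the antibiotic arm tests a short oral course of both drugs together, not germ-free gut. Whether every library came from its own animal is not stated, so p-values measure the spread between these libraries.

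Leptin is a hormone of fat cells that acts on neurons of the hypothalamus and brainstem and lowers food intake. The brain reaches the gut through autonomic nerves and through the adrenal axis, whose end product in mice, corticosterone, acts on the glucocorticoid receptor in most cells. The duodenum takes up fat, sugars, amino acids, iron and calcium through enterocytes, which mature as they climb from the crypt to the tip of the villus. Its epithelium also responds to gut bacteria, for example by making the antimicrobial lectins Reg3b and Reg3g.

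The libraries held 30207536 to 67870777 counts, with group medians between 41567083 and 50341323. The duodenal identity genes Pdx1 (101 to 198 CPM, counts scaled to the size of the library) and Gata4 (206 to 315 CPM) and the enterocyte gene Alpi (2690 to 5540 CPM) were high in every library, while the distal ileum gene Slc10a2 did not exceed 3.21 CPM. Some libraries also held RNA of neighbouring tissue. The mean log2 CPM of 23 exocrine pancreas genes was between 4.44 and 5.18 in 5 libraries (Leptin-water 10, Saline-antibiotic 1, 2 and 5, and Leptin-antibiotic 3) and between −2.34 and 2.54 in the other 19. These 5, called pancreas-high here, are unevenly spread over the groups, so the lists and genes that turned most on them are given with and without them.

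No gene passed the test for a leptin response that differs between the arms. Of 16340 genes tested by edgeR's quasi-likelihood F test, 0 passed a Benjamini-Hochberg adjusted p of 0.05 (0% called; lowest adjusted p = 0.772). At an unadjusted p under 0.05 stood 1043 genes (6.38%), 579 of them with a positive difference (3.54%) and 464 with a negative one (2.84%). With the ribosomal RNA gene Rn45s left out this split was 464 and 558, and with no filter on low counts 464 and 566. DESeq2 also called 0 genes, with 1094 at that unadjusted level. The median difference over all genes was −0.00376, with 49.2% positive. A difference of 2 effects carries the spread of 4 groups: its median standard error (SE) was 0.166, against 0.117 for the leptin effect on antibiotic alone. The median size of the difference regardless of sign was 0.134. An even spread of p would put 817 genes under 0.05, against the 1043 seen and 685 without the pancreas-high libraries. The excess over 817 was not tested.

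The arms looked unequal when read one at a time. On antibiotic 84 genes passed (0.514%), 75 higher and 9 lower with leptin, and on water 0 passed (0%; lowest adjusted p = 0.124; 1194 genes, or 7.31%, at an unadjusted p under 0.05). That contrast is no evidence of a different response, since the test of the difference called nothing. On leaving out 1 library at a time, the count on antibiotic ranged from 9 to 183, and DESeq2 called 410. The 6 leptin and 6 saline libraries of an arm did not overlap for 335 genes on antibiotic (2.05%) and for 88 on water (0.539%). The 2 arms share no library, and of the 75 genes higher on antibiotic 71 were also higher on water (94.7%, against 59.2% same-sign among all genes). Their median log2 fold change was 0.477 on antibiotic, where they were chosen and where selection enlarges it, and 0.149 on water, where 26 of them stood at an unadjusted p under 0.05. Read the other way, of 627 genes higher on water at an unadjusted p under 0.05, 480 were higher on antibiotic (76.6%), with a median of 0.271 on water, where they were chosen, and 0.125 on antibiotic.

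Among the 1043 genes at an unadjusted p under 0.05, most had effects of opposite sign in the arms. Leptin was associated with a higher level on antibiotic and a lower one on water in 451 (43.2%, against 18.8% of all genes) and with the reverse in 423 (40.6%, against 21.9%). A higher level in both arms, more so on antibiotic, was seen in 118 (11.3%, against 17.4% of all genes). More so on water it was seen in 5 (0.479%, against 10.2%). A lower level in both arms was seen in 36 with the larger effect on antibiotic (3.45%, against 18.7%). With the larger effect on water it was seen in 10 (0.959%, against 12.9%). Opposite signs widen a difference by arithmetic, so these shares describe the genes and are not a test.

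**Figure D1:**
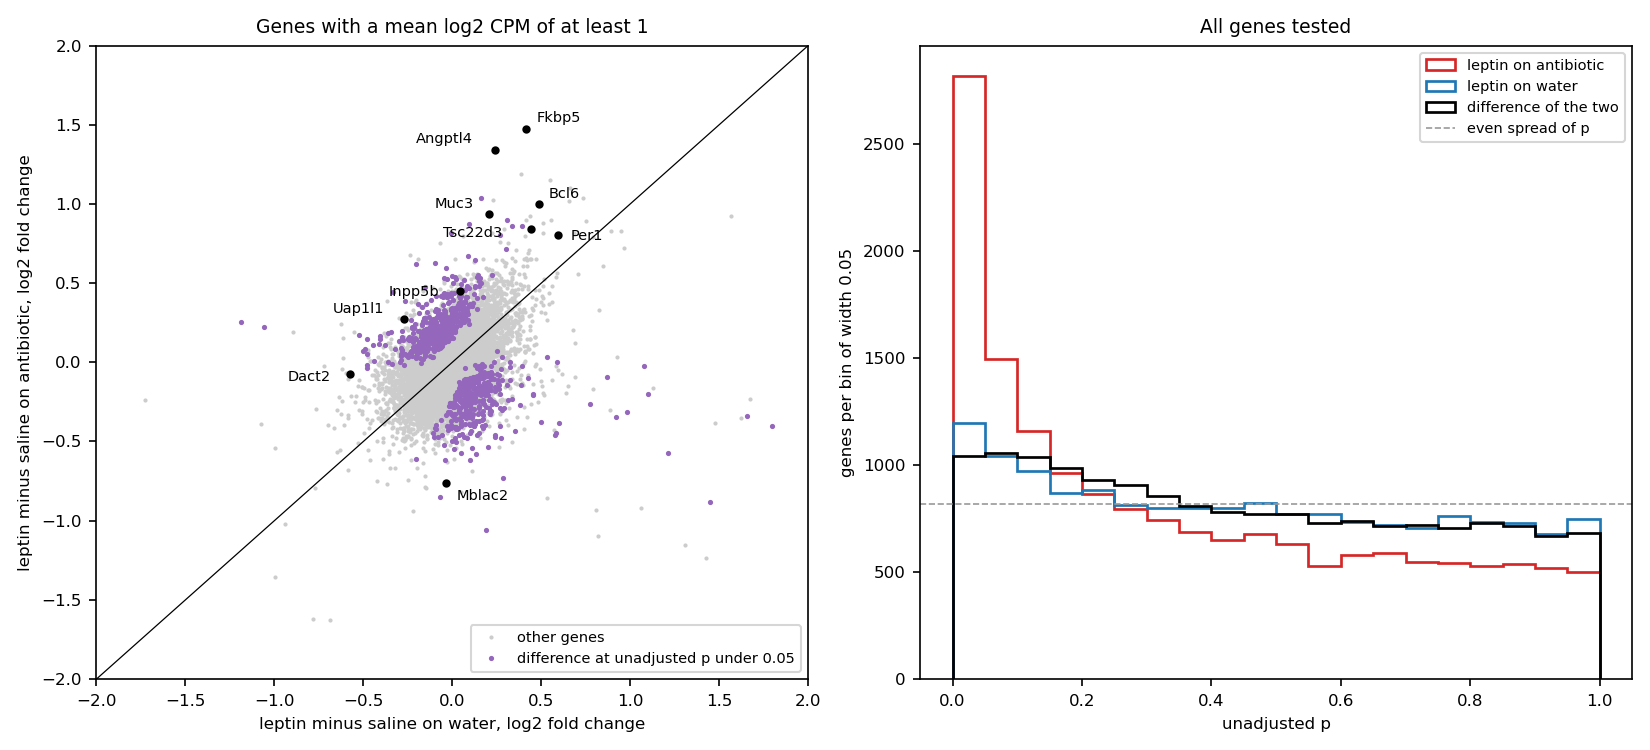
Left, the leptin log2 fold change on water (horizontal) and on antibiotic (vertical), one point per gene whose mean log2 CPM was 1 or more, purple where the difference stood at an unadjusted p under 0.05; the line marks equal effects. Right, the number of genes per bin of unadjusted p for each arm and for their difference, with a dashed line at an even spread; the first bin holds 2817 genes for leptin on antibiotic, 1194 for leptin on water and 1043 for the difference.

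With all 24 libraries, the glucocorticoid response genes leaned furthest to a larger leptin effect on antibiotic among the 49 gene lists examined. The rank was narrow, as interferon-stimulated genes had a median of 0.366. It was lost without Saline-water 10 (0.186, against 0.401 for interferon-stimulated genes). It was also lost without the pancreas-high libraries (0.194, against 0.349 for smooth muscle). Of 25 glucocorticoid members tested, 20 had a positive difference and 5 a negative one. Their median was 0.372, beside −0.00376 for all genes. With leptin the members' median log2 fold change was 0.524 on antibiotic, against 0.184 on water. Of these members 4 stood at an unadjusted p under 0.05, all positive (Fkbp5, Bcl6, Cdkn1a and Usp2), against 3.54% of all genes, and 0 passed the adjusted threshold. Usp2, a deubiquitinase gene, had a difference of 0.41, and 0.19 without the pancreas-high libraries. For leptin on antibiotic alone, 5 of the 25 passed the adjusted threshold, against 0.514% of all genes. The list mean did not overlap between the 6 Leptin-antibiotic libraries (5.12 to 5.54 log2 CPM) and the 6 Saline-antibiotic libraries (4.49 to 4.91). On water it overlapped (4.88 to 5.4 with leptin, 4.45 to 5.48 with saline).

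Fkbp5 encodes a chaperone that binds the glucocorticoid receptor and is induced by it. It ranged from 28.2 to 152 CPM in Saline-water (median 99.3), 86 to 187 in Leptin-water (116), 29.9 to 87.2 in Saline-antibiotic (56.3) and 109 to 221 in Leptin-antibiotic (152). On antibiotic the leptin and saline libraries did not overlap, and on water the saline libraries spanned a wide range that reached into the leptin libraries. The log2 fold change was 1.48 on antibiotic (adjusted p = 0.0282 by edgeR) and 0.41 on water, with a difference of 1.06 (SE 0.44, 95% interval 0.15 to 1.97; unadjusted p = 0.0226, adjusted p = 0.772 by edgeR).

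Bcl6, a transcriptional repressor, lay at 16.3 to 46.1 CPM in Saline-water (median 24), 27 to 43 in Leptin-water (36.4), 16 to 23.7 in Saline-antibiotic (20.6) and 35.7 to 46.2 in Leptin-antibiotic (41.4). The highest Saline-water library, replicate 10, was as high as the leptin libraries, and on antibiotic the groups were apart. The difference was 0.52 (SE 0.24; unadjusted p = 0.0428, adjusted p = 0.772 by edgeR), and without Saline-water 10 it was 0.27. Tsc22d3, whose product GILZ is a leucine zipper protein that glucocorticoids induce, lay at 42.9 to 109 CPM in Saline-water (median 48.5), 66.2 to 93.7 in Leptin-water (78.8), 48.7 to 60.9 in Saline-antibiotic (57.3) and 81.1 to 116 in Leptin-antibiotic (99.1). Here too Saline-water 10 stood above its group. Its difference of 0.40 (SE 0.23; adjusted p = 0.772 by edgeR) was 0.12 without that library. Over the whole list the median difference was 0.186 without Saline-water 10, as the leptin effect on water then had a median of 0.33.

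Cdkn1a, the cell cycle inhibitor p21, had a log2 fold change of 0.52 on antibiotic (adjusted p = 0.0534 by edgeR) and 0.02 on water. It lay at 139 to 228 CPM in Saline-water (median 180), 152 to 217 in Leptin-water (184), 98.9 to 179 in Saline-antibiotic (159) and 188 to 250 in Leptin-antibiotic (208). The antibiotic groups did not overlap, and the water groups covered nearly the same range. The difference was 0.50 (SE 0.18; unadjusted p = 0.0087, adjusted p = 0.772 by edgeR), and 0.40 without the pancreas-high libraries.

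Clock genes leaned less. Of 23 tested, 17 were positive with a median difference of 0.149, which was −0.027 without the pancreas-high libraries and 0.082 without Saline-antibiotic 1 alone. Per1, a core clock gene that glucocorticoids induce, rose on antibiotic (log2 fold change 0.80, adjusted p = 0.0397 by edgeR), and its fold change on water was 0.59. Its difference was 0.21 (SE 0.25; adjusted p = 0.864 by edgeR), and −0.05 without those libraries. Nr4a1, an early-response nuclear receptor gene, fell on antibiotic (log2 fold change −1.62, adjusted p = 0.0481 by edgeR). Its fold change on water was −0.78 (adjusted p = 0.681 by edgeR). Without the pancreas-high libraries it had −0.65 on antibiotic and −0.67 on water. The Nr4a1 difference of −0.84 (SE 0.53, adjusted p = 0.774 by edgeR) was 0.02 without those libraries and −0.32 without Saline-antibiotic 5 alone.

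**Figure D2:**
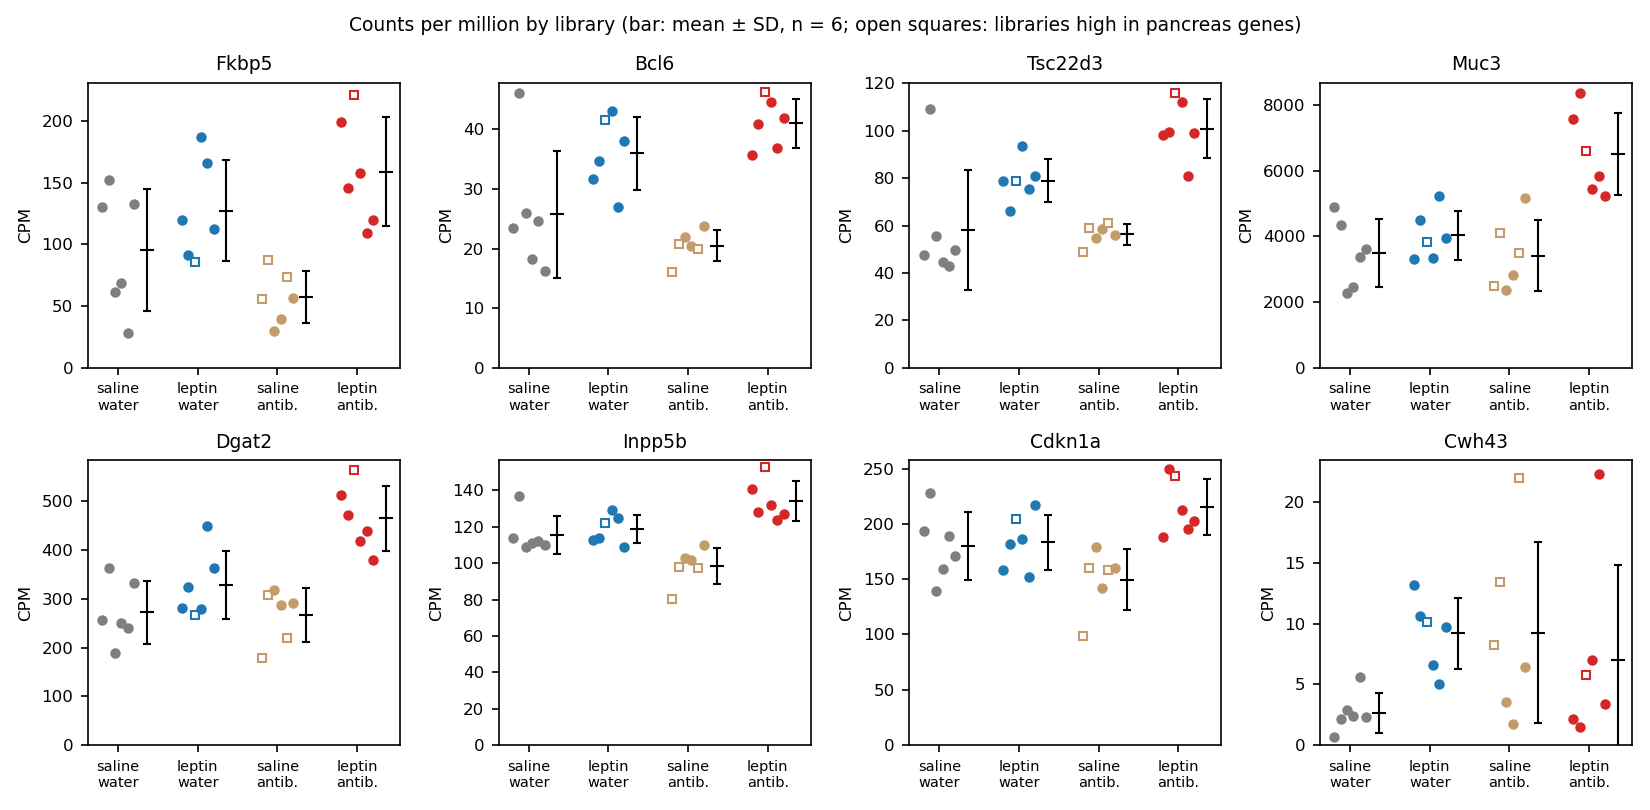
CPM (vertical, linear from 0) of 8 genes in each library of the 4 groups, with the mean and SD of 6 libraries beside the points and open squares for the 5 pancreas-high libraries. For Fkbp5, Bcl6, Tsc22d3, Muc3, Dgat2, Inpp5b and Cdkn1a the Leptin-antibiotic points lie above every Saline-antibiotic point, and for Cwh43 the Leptin-water points cluster above most Saline-water points while the antibiotic groups overlap.

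Genes of nutrient uptake also leaned to a larger leptin effect on antibiotic. In the list of lipid absorption and chylomicron genes 27 of 31 members were positive, with a median difference of 0.252 (median fold change 0.277 on antibiotic, 0.069 on water). At an unadjusted p under 0.05 stood 7 positive members (3.54% of all genes did), among them the chylomicron apolipoprotein genes Apoa1 (0.48) and Apoc3 (0.55), the cholesterol transporter gene Npc1l1 (0.34) and the transcription factor gene Creb3l3 (0.36). The 1 negative member at that level (2.84% of all genes) was Acsl3 (−0.41). Without the pancreas-high libraries Npc1l1 had 0.18, Creb3l3 0.14 and Acsl3 −0.06. Carbohydrate genes were positive in 18 of 19 (median 0.258), amino acid and peptide transporters in 14 of 19 (0.193), brush border peptidases in 13 of 13 (0.147) and PPAR-alpha and fatty acid oxidation genes in 29 of 35 (0.104). Of these, 1 carbohydrate gene and 2 amino acid and peptide transporters stood at an unadjusted p under 0.05, all positive (3.54% of all genes did). Among the brush border peptidases and the PPAR-alpha genes 0 did. No member of these lists passed the adjusted threshold for the difference.

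Dgat2 makes triglyceride in its last step. It lay at 188 to 364 CPM in Saline-water (median 254), 267 to 450 in Leptin-water (303), 178 to 319 in Saline-antibiotic (289) and 380 to 565 in Leptin-antibiotic (457). Every Leptin-antibiotic library was above every Saline-antibiotic one, while the water groups overlapped. It rose on antibiotic (log2 fold change 0.80, adjusted p = 0.0183 by edgeR) and had 0.27 on water, with a difference of 0.53 (SE 0.22; adjusted p = 0.772 by edgeR), which was 0.25 without the pancreas-high libraries.

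Treh encodes the brush border enzyme that splits trehalose. It lay at 263 to 387 CPM in Saline-water (median 311), 276 to 385 in Leptin-water (316), 253 to 455 in Saline-antibiotic (375) and 420 to 594 in Leptin-antibiotic (490). The water groups matched in range and the antibiotic groups overlapped at their edges, with a difference of 0.43 (SE 0.17; adjusted p = 0.772 by edgeR), and 0.24 without the pancreas-high libraries. The glucose transporter gene Slc5a1 (SGLT1) had a difference of 0.29 (SE 0.23; adjusted p = 0.798 by edgeR), 0.19 without Saline-antibiotic 1 and 0.02 without the pancreas-high libraries. The apolipoprotein gene Apoa4, a marker of fat absorption, had 0.51 (SE 0.26; adjusted p = 0.772 by edgeR), the nuclear receptor gene Ppara 0.39 (SE 0.19) and Angptl4, an inhibitor of lipoprotein lipase, 1.10 (SE 0.57). For Angptl4 a single library carried much of this: Saline-water 10 held 70.6 CPM where its group's median was 12.5, and without it the difference was 0.30.

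Slc6a6, the taurine transporter gene, was picked out after its values were seen. It lay at 317 to 413 CPM in Saline-water (median 351), 328 to 408 in Leptin-water (373), 324 to 363 in Saline-antibiotic (345) and 405 to 518 in Leptin-antibiotic (452). Every Leptin-antibiotic library was above the Saline-antibiotic ones, and the water groups covered the same range. It rose on antibiotic (log2 fold change 0.40, adjusted p = 0.016 by edgeR) with 0.04 on water, and the difference was 0.36 (SE 0.11; unadjusted p = 0.00222, adjusted p = 0.772 by edgeR) and 0.29 without the pancreas-high libraries.

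The lean of the uptake genes depended on which libraries were kept. Without the 5 pancreas-high libraries the median difference was 0.059 for lipid absorption, 0.073 for carbohydrate handling, 0.028 for amino acid and peptide uptake, −0.054 for brush border peptidases and 0.023 for PPAR-alpha genes. Leaving out Saline-antibiotic 1 alone, the library with the lowest lipid list mean of all 24 (7.29 log2 CPM), gave 0.139 for lipid absorption, 0.163 for carbohydrate handling, 0.103 for amino acid and peptide uptake, 0.093 for brush border peptidases and 0.054 for PPAR-alpha genes. For the peptidases 0.072 was reached without Leptin-antibiotic 2. With all 24 libraries kept and tissue scores as covariates (pancreas, smooth muscle, and stomach and Brunner gland), the medians were 0.244 for lipid absorption, 0.230 for carbohydrate handling, 0.126 for amino acid and peptide uptake, 0.099 for brush border peptidases and 0.248 for PPAR-alpha genes. The glucocorticoid list had 0.194 without the 5 libraries and 0.306 with the covariates. With the 5 left out, 0 genes passed on antibiotic and 685 stood at an unadjusted p under 0.05 for the difference, in a comparison that keeps 3 Saline-antibiotic libraries. What else about those 5 libraries moves with the smaller medians was not tested.

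**Figure D3:**
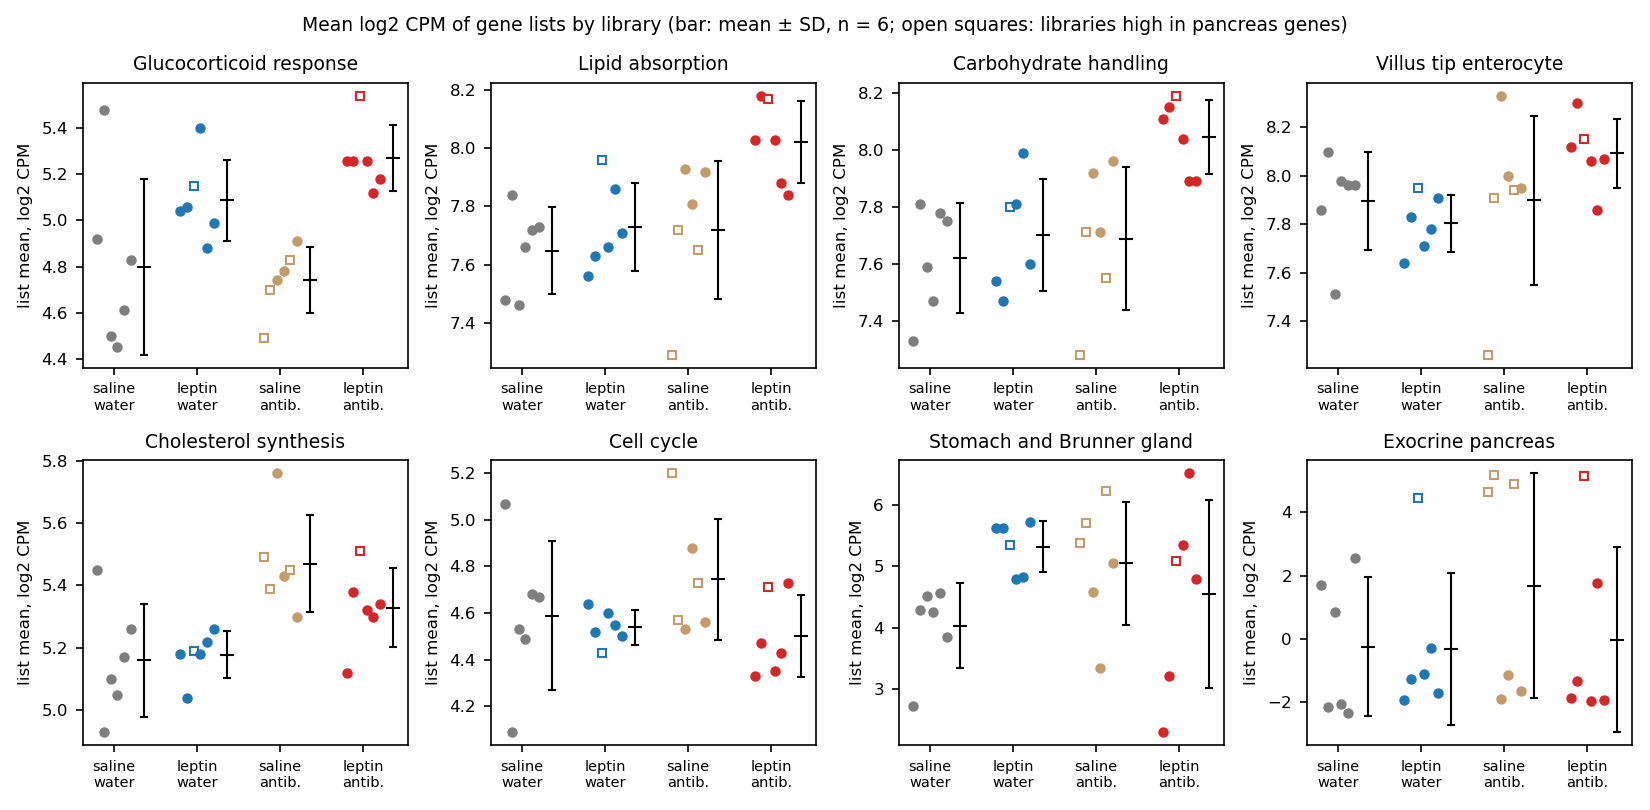
Mean log2 CPM (vertical) of 8 gene lists in each library of the 4 groups, with the mean and SD of 6 libraries and open squares for the 5 pancreas-high libraries. The glucocorticoid list separates the antibiotic groups, the lipid and carbohydrate lists have 1 Saline-antibiotic library below its other 5, and the stomach and Brunner gland list stays at or below 4.56 in every Saline-water library.

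Mature enterocyte genes leaned the same way as the uptake genes. The lists are not separate evidence, as they can share genes. Creb3l3 is in both the lipid absorption and villus tip lists, and Cdkn1a in both the glucocorticoid and villus tip lists. Of 24 enterocyte genes 21 had a positive difference (median 0.199), and of 18 villus tip genes 17 did (median 0.270). Without the pancreas-high libraries these medians were 0.030 and 0.093, and without Saline-antibiotic 1 the villus tip median was 0.144. In bulk tissue, more mature enterocytes and more RNA of these genes per cell cannot be told apart. Class I antigen presentation genes were positive in 18 of 22 (median 0.228), and 0.030 without those libraries. At an unadjusted p under 0.05 stood 4, all positive (3.54% of all genes did): the class I genes H2-K1, H2-Q1 and H2-Q2, which can share reads, and Tapbp, which loads peptides onto class I molecules. Their differences were 0.32 to 0.42, and 0.18 to 0.21 without those libraries. MHC class II genes were positive in 15 of 16 (median 0.255), with 0 at an unadjusted p under 0.05. Their median leptin effect was negative in both arms, −0.292 on water and −0.073 on antibiotic. The median difference of the class II genes was −0.093 without the pancreas-high libraries and 0.089 without Saline-water 12.

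Interferon-stimulated genes had the second largest positive median, 0.366, with 31 of 35 members positive but 0 at an unadjusted p under 0.05. It rested largely on 1 library: without Leptin-antibiotic 2 the median was 0.037. It was also 0.043 with tissue scores as covariates. Enteroendocrine genes were positive in 21 of 28 (median 0.265) and had 0.2 without the pancreas-high libraries. Scg2, a granule protein of endocrine cells, lay at 13.7 to 17.6 CPM in Saline-water (median 15.6), 11.1 to 15 in Leptin-water (12.1), 12.1 to 15.5 in Saline-antibiotic (12.8) and 11.3 to 21.1 in Leptin-antibiotic (14.9). The groups overlapped in both arms. The log2 fold change was −0.28 on water and 0.20 on antibiotic, with a difference of 0.48 (SE 0.16, unadjusted p = 0.00701, adjusted p = 0.772 by edgeR). Over the alternative analyses the difference of Scg2 ran from 0.15 to 0.65. The satiety hormone gene Cck had 0.35 (SE 0.19; adjusted p = 0.772 by edgeR).

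Muc3, a membrane-bound mucin of the brush border, was among the most abundant genes with a wide gap between arms. It lay at 2280 to 4900 CPM in Saline-water (median 3490), 3310 to 5230 in Leptin-water (3890), 2370 to 5150 in Saline-antibiotic (3150) and 5240 to 8360 in Leptin-antibiotic (6220). The Leptin-antibiotic libraries were above all the others, and the other 3 groups overlapped. Muc3 rose on antibiotic (log2 fold change 0.93, adjusted p = 0.0285 by edgeR), with 0.20 on water, and the difference of 0.73 (SE 0.28; unadjusted p = 0.0153, adjusted p = 0.772 by edgeR) was 0.70 without the pancreas-high libraries. Among 24 glycosylation genes, 6 stood at an unadjusted p under 0.05, all positive (3.54% of all genes did), while 15 of the 24 were negative and the median was −0.069. The fucosyltransferase gene Fut4 was one of the 6, with a difference of 0.47 (SE 0.19) and a rise on antibiotic of 0.86 (adjusted p = 0.0098 by edgeR). Without the pancreas-high libraries Fut4 had 0.37. Other fucosyltransferase genes then had −1.15 (Fut1), 0.22 (Fut2), 0.42 (Fut7) and 0.17 (Fut8). The list median was 0.051 without those libraries, and it kept its sign in 8 of 12 alternatives.

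Fewer lists had a negative median difference, 14 of the 49 against 35 with a positive one. The sign does not give the size of the response. In the cholesterol synthesis and cell cycle lists the median leptin effect was larger in size on antibiotic, as a fall. In the MHC class II list, with its positive difference, the median effect was a fall in both arms and smaller on antibiotic. Cholesterol synthesis genes, which the transcription factor SREBP2 drives, were negative in 19 of 24 with a median of −0.140 (median fold change −0.158 on antibiotic, 0.022 on water). It was −0.195 without the pancreas-high libraries and −0.071 without Saline-antibiotic 3. All 4 members at an unadjusted p under 0.05 (2.84% of all genes in that direction) encode enzymes of the pathway and were negative: Idi1 (−0.49, SE 0.19), Fdft1 (−0.35, SE 0.13), Cyp51 (−0.34, SE 0.15) and Hmgcs1 (−0.31, SE 0.13). Idi1, an isomerase of isoprenoid synthesis, lay at 25.5 to 51 CPM in Saline-water (median 33.9), 30.4 to 43.5 in Leptin-water (34.7), 41.7 to 63.5 in Saline-antibiotic (50.1) and 32.7 to 43.2 in Leptin-antibiotic (37.9). The Saline-antibiotic libraries were the high ones, and 5 of the 6 Leptin-antibiotic libraries were below all of them.

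Cell cycle genes were negative in 29 of 31 with a median difference of −0.199, and the median fold change was −0.273 on antibiotic and −0.087 on water. Cytosolic ribosomal protein genes were negative in 44 of 47 (median −0.128) and intestinal stem cell and Wnt genes in 20 of 23 (−0.103). None of their members stood at an unadjusted p under 0.05. Without the pancreas-high libraries these medians were −0.150, −0.131 and −0.063. Without Saline-antibiotic 1 they were −0.101, −0.076 and −0.066, and the ribosomal median was −0.072 without Leptin-antibiotic 2. Paneth cell genes were negative in 19 of 20 (median −0.447), but without Saline-antibiotic 1 the median was −0.022. With all 39 libraries, where those added were all on water, it was −0.028, and the ribosomal median −0.009.

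The exocrine pancreas list and the stomach and Brunner gland list had the largest negative medians. Stomach and Brunner gland genes were negative in 19 of 21, with a median difference of −0.693, a median fold change of 0.618 on water and −0.075 on antibiotic. At an unadjusted p under 0.05 stood 5 of the 21, all negative (23.8%, against 2.84% of all genes in that direction). The list mean was 2.72 to 4.56 log2 CPM in Saline-water (median 4.27), 4.80 to 5.73 in Leptin-water (5.48), 3.35 to 6.23 in Saline-antibiotic (5.22) and 2.30 to 6.52 in Leptin-antibiotic (4.94). Every Leptin-water library was above every Saline-water library, and the antibiotic groups overlapped throughout. Without the pancreas-high libraries the median difference was −0.240, and the median leptin effect was then positive in both arms, 0.639 on antibiotic and 0.671 on water. The median difference was 0.030 with tissue scores, this list's own among them, as covariates and −0.062 with all 39 libraries. Of its defining markers Muc6 ran from 2720 to 17700 CPM, Tff2 from 697 to 4030 and Gkn1 from 0.781 to 1230, while Atp4a did not exceed 0.937 CPM. How much of this is tissue taken at dissection was not tested.

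Cwh43, one of that list, lay at 0.648 to 5.61 CPM in Saline-water (median 2.33), 5.03 to 13.2 in Leptin-water (9.89), 1.76 to 22 in Saline-antibiotic (7.35) and 1.48 to 22.3 in Leptin-antibiotic (4.55). Its difference of −2.19 (SE 0.80; unadjusted p = 0.0108, adjusted p = 0.772 by edgeR) came from a higher level with leptin on water, and the antibiotic libraries were too spread to show a direction. It was −0.90 without the pancreas-high libraries. Exocrine pancreas genes were negative in 22 of 23 (median −2.39), and their sign turned without the pancreas-high libraries (median 6.15, at counts near 0). Of those libraries 3 were Saline-antibiotic, 1 Leptin-antibiotic, 1 Leptin-water and 0 Saline-water.

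Among immune cell lists, the T cell genes (median difference 0.116) and the macrophage and dendritic cell genes (0.121) turned without the pancreas-high libraries, to −0.427 and −0.138. B and plasma cell genes were negative with all libraries (−0.154) and without those (−0.836), and kept that sign in all 12 alternatives, from −0.836 to −0.065, and on each of the 24 omissions of 1 library, where the median nearest to 0 was −0.009. Smooth muscle genes (16 of 17 positive, median 0.165) and enteric neuron and glia genes (17 of 21 positive, median 0.222) had negative median leptin effects in both arms, −0.325 on water and −0.142 on antibiotic for smooth muscle. Without Leptin-water 10 the median differences were 0.027 and 0.084. With all 39 libraries both turned, to −0.237 for smooth muscle and −0.224 for neuron and glia, and the median effects on water became positive (0.093 and 0.102). With tissue scores as covariates, smooth muscle among them, the smooth muscle median was −0.029 and the neuron and glia median 0.159.

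**Figure D4:**
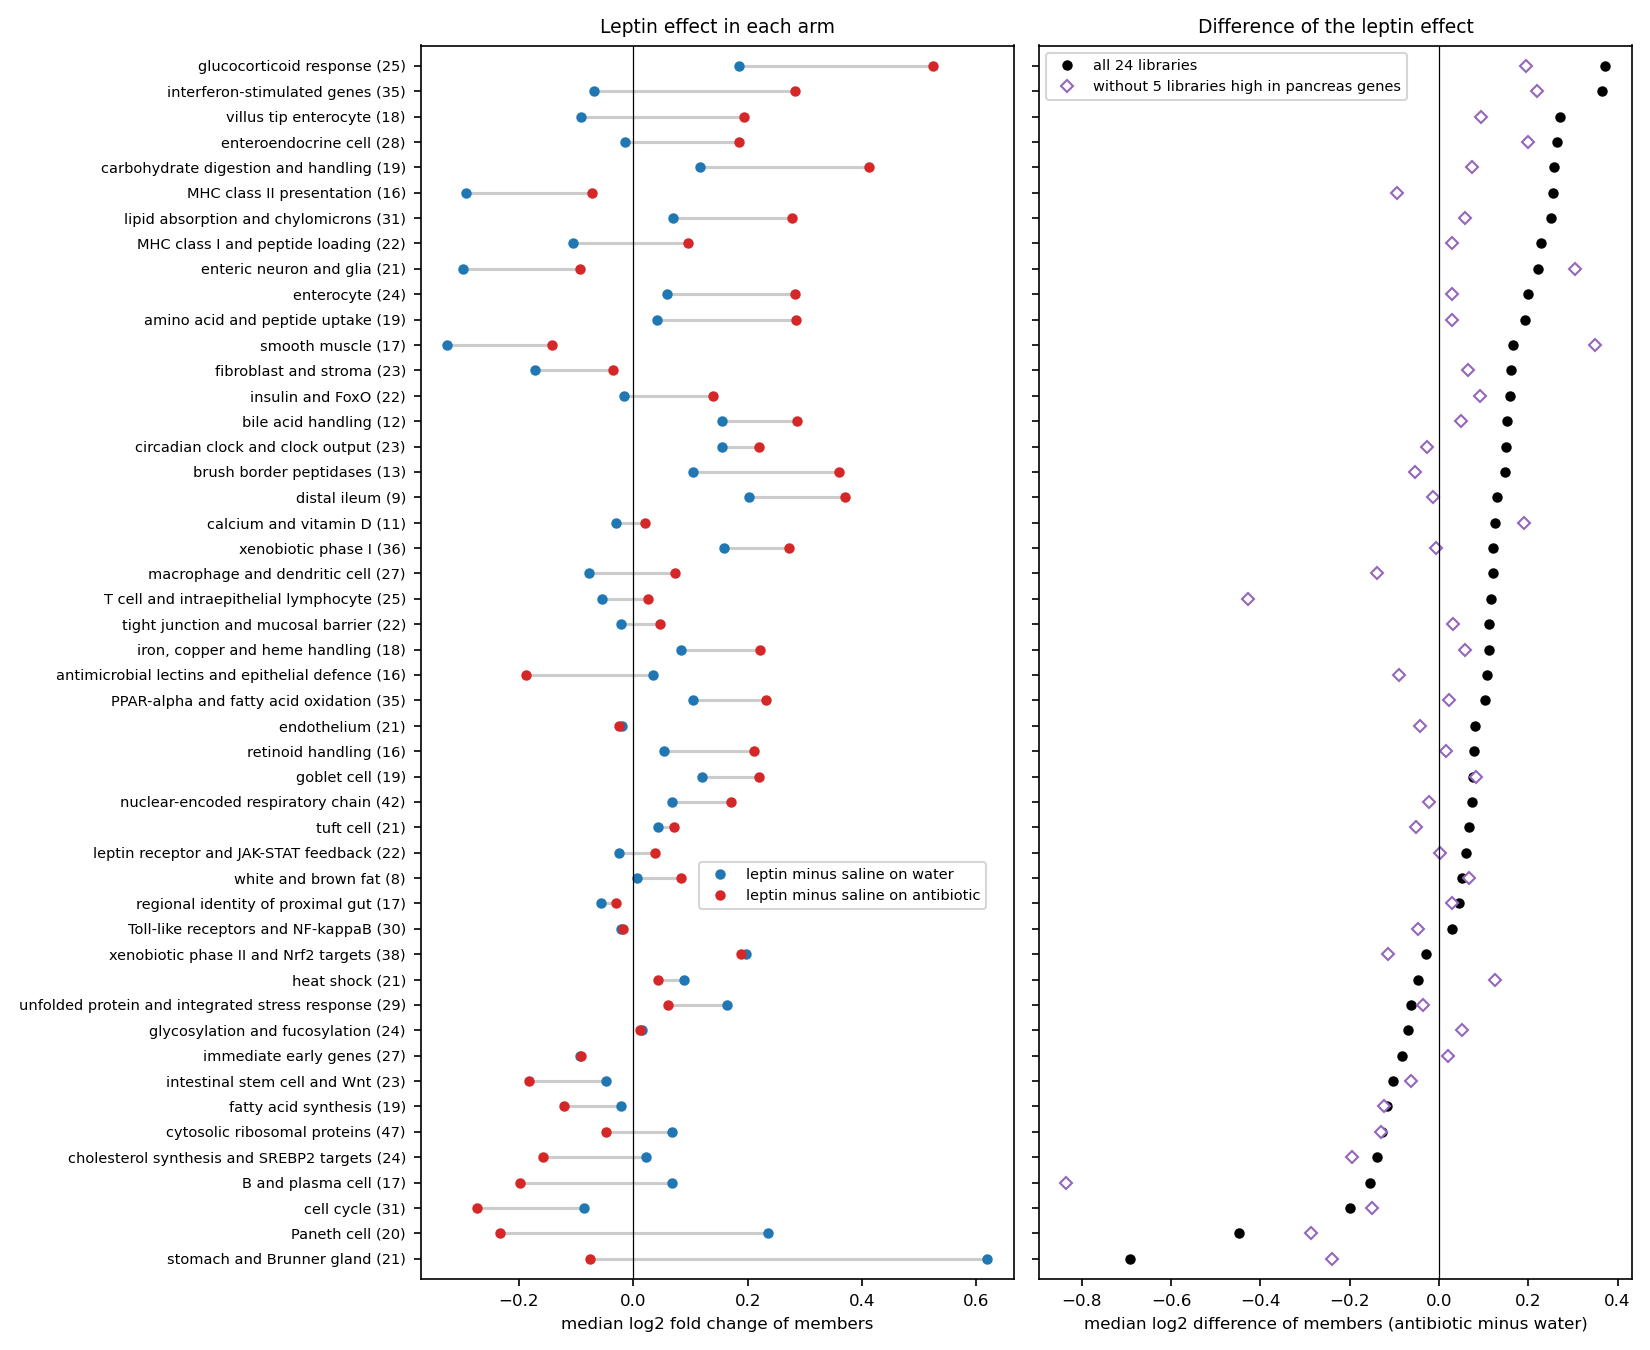
Left, the median log2 fold change with leptin of the tested members of 48 lists (number tested in brackets) on water and on antibiotic. Right, the median log2 difference of the members, antibiotic minus water, in all 24 libraries (filled) and without the 5 pancreas-high libraries (open); the glucocorticoid list has 0.372 and 0.194, lipid absorption 0.252 and 0.059, and cholesterol synthesis −0.140 and −0.195. The exocrine pancreas list is not drawn.

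The genes with the lowest unadjusted p for the difference had varied roles. Inpp5b, an inositol polyphosphate phosphatase gene on chromosome 4 (124741850 to 124801511, plus strand of GRCm38), came first. It lay at 109 to 137 CPM in Saline-water (median 111), 109 to 129 in Leptin-water (118), 80.4 to 110 in Saline-antibiotic (99.9) and 124 to 153 in Leptin-antibiotic (130). Leptin and saline did not overlap on antibiotic, where Inpp5b rose (log2 fold change 0.45, adjusted p = 0.0098 by edgeR), and overlapped on water (0.04). The difference was 0.41 (SE 0.10; unadjusted p = 0.000474, adjusted p = 0.772 by edgeR) and 0.28 without the pancreas-high libraries. The gene Gm12915 overlaps it on the opposite strand, and the strand setting of the counting is not given in the sources used here.

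Amn encodes amnionless, which with cubilin takes up vitamin B12 bound to intrinsic factor. It lay at 21.7 to 30 CPM in Saline-water (median 26.9), 21 to 28.9 in Leptin-water (25.4), 24.9 to 33.1 in Saline-antibiotic (29.2) and 35.1 to 44.7 in Leptin-antibiotic (36.9). The Leptin-antibiotic group was above every other library. Amn rose on antibiotic (0.42, adjusted p = 0.0481 by edgeR), with −0.09 on water and a difference of 0.51 (SE 0.14; unadjusted p = 0.000969, adjusted p = 0.772 by edgeR) that was 0.48 without the pancreas-high libraries.

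Fcgrt, the neonatal Fc receptor that carries IgG across epithelia, lay at 74.8 to 102 CPM in Saline-water (median 82), 71.1 to 91.9 in Leptin-water (83.3), 47.1 to 68.9 in Saline-antibiotic (60) and 73.3 to 93.4 in Leptin-antibiotic (76.2). The Saline-antibiotic group was the one apart, below all others. Fcgrt rose with leptin on antibiotic (0.41, adjusted p = 0.0282 by edgeR) and the difference was 0.44 (SE 0.12; adjusted p = 0.772 by edgeR). Tfeb, the transcription factor of lysosome and autophagy genes, had a difference of 0.42 (SE 0.11), Ankrd9 0.43 (SE 0.11), Uap1l1 0.55 (SE 0.15) and Rilp, which tethers lysosomes to dynein, 0.40. Of these 4, Ankrd9 rose on antibiotic (adjusted p = 0.0146 by edgeR).

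Dact2, a modulator of Wnt signalling, had its larger fold change in the water arm. It lay at 13 to 19.9 CPM in Saline-water (median 14.1), 9.34 to 11.1 in Leptin-water (10.2), 10.4 to 14.3 in Saline-antibiotic (11.6) and 10 to 12.7 in Leptin-antibiotic (11.5). Leptin and saline were apart on water and overlapped on antibiotic, with log2 fold changes of −0.58 and −0.08 and a difference of 0.50 (SE 0.14; adjusted p = 0.772 by edgeR).

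In the negative direction Mblac2, a metallo-beta-lactamase domain gene on chromosome 13 (81711341 to 81753275, plus strand), came first. It lay at 3.04 to 3.96 CPM in Saline-water (median 3.45), 2.74 to 4.02 in Leptin-water (3.39), 3.19 to 4.57 in Saline-antibiotic (3.86) and 1.6 to 2.96 in Leptin-antibiotic (2.3). It fell on antibiotic by 0.76 on the log2 scale (adjusted p = 0.0106 by edgeR) with groups that did not overlap, and its fold change on water was −0.03. The difference was −0.73 (SE 0.19; unadjusted p = 0.000695, adjusted p = 0.772 by edgeR), and −0.64 without the pancreas-high libraries. The other 9 included genes of general cell functions, among them Cdk7, a kinase of the cell cycle and of transcription (−0.31), Utp18 of ribosome assembly (−0.39), Psmg2 of proteasome assembly (−0.57) and the splicing factor gene Tra2b (−0.33).

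The lectin genes Reg3b and Reg3g, which respond to gut bacteria, gave no stable value. Reg3b lay at 24.8 to 7110 CPM in Saline-water (median 97.4), 27.9 to 225 in Leptin-water (137), 3.75 to 197 in Saline-antibiotic (24.5) and 2.98 to 26 in Leptin-antibiotic (14.7). The top value is 1 library, Saline-water 9. The difference was 1.28 (SE 1.49; adjusted p = 0.858 by edgeR) with it and −2.20 without it, and for Reg3g, which can share reads with Reg3b, 1.17 (SE 1.20) and −1.54. Without the pancreas-high libraries Reg3g had 0.63.

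Genes of leptin signalling itself did not pass the test. Of 22 leptin receptor and JAK-STAT feedback genes 14 were positive, with a median of 0.061 (0.024 without Saline-antibiotic 1) and 0 at an unadjusted p under 0.05. Socs3, the feedback inhibitor induced by leptin receptor signalling, had a difference of 0.32 (SE 0.28, adjusted p = 0.811 by edgeR). It was 0.18 without Saline-water 9, and 0.01 to 0.32 over the alternative analyses. The leptin receptor gene Lepr, named after its value was seen, had −0.27 (SE 0.25). The early-response gene Fos had −0.15 (SE 0.26; adjusted p = 0.908 by edgeR; −0.07 without Leptin-water 9, −0.38 without the pancreas-high libraries).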

How the data were processed

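Per the labels' protocols, 150 ng of total RNA per library was depleted of ribosomal RNA, made into stranded libraries and sequenced as paired ends. The authors deposited raw read counts, with 16358 gene symbols for 39 libraries. Tools named in the submitters' processing notes are HISAT2, featureCounts, FastQC and edgeR 3.42.0, with the build mm10. The sources used here do not give the annotation, the strand setting or any filter rule.

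The 24 libraries were fitted together with edgeR 4.0.16 in R 4.3.3: TMM factors, filterByExpr on the 4 groups (16340 genes kept), a mean per group (20 residual degrees of freedom), quasi-likelihood F tests and Benjamini-Hochberg adjustment over all genes. The SE is the size of the log2 value over the square root of F. CPM use TMM library sizes, and log2 CPM a prior count of 2. The fit was tested on simulated data. All 60 pairs of libraries within a group differed beyond sampling noise (chi-square per degree of freedom 19.7 to 201). At 30207536 counts or more a library, spread between libraries exceeded counting error.

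Named genes were up to 10 in each direction with the lowest unadjusted p of the difference (mean log2 CPM of at least 1), 2 members each of the 10 lists with the largest medians, and 16 others. Further members of lists, mostly those at an unadjusted p under 0.05, were named after their values were seen. Members, lists and named genes were chosen with earlier results of these data known, so no list is independent evidence. Some genes belong to several lists. Lists are described by counts and medians, with no set test. Alternatives were other scalings, filters, DESeq2 1.42.0, limma 3.58.1 voom, surrogate variables (sva 3.50.0), tissue scores as covariates, all 39 libraries with library set as a term, a replicate block, and leaving out libraries. The libraries added to reach 39 were all Saline-water or Leptin-water, with none on antibiotic. Positions are from GENCODE vM21 (GRCm38), which matched 15978 of 16340 symbols (97.8%).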

Additional observations from a re-analysis of the deposited data

Results flagged for a closer look

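Of 408 sets of 6 libraries (53 named genes and 49 lists in 4 groups), 23 held a library far from the other 5 (5.64%, where chance flags about 5%). All values here are log2 CPM, or the mean log2 CPM of a list.

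Saline-water 10 stood above its group for Angptl4 (6.14, next 4.10), Tsc22d3 (6.77, next 5.80) and Inpp5b (7.09, next 6.83). Its effect on the first pair is given with the results. Saline-water 9 stood high for Reg3g (11.6, next 7.47) and for the list of antimicrobial lectins and epithelial defence (7.20, next 5.79), whose median difference of 0.107 was −0.675 without it, and low for Gp2 (1.20, next 2.58). Other Saline-water libraries apart were replicate 13 for the interferon-induced gene Bst2 (4.50, next 2.66), replicate 14 for Nr4a1 (3.78, next 2.44) and replicate 11 for Ankrd9 (5.21, next 5.44).

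Saline-antibiotic 1, one of the pancreas-high libraries, was the lowest of its group for Apoa4 (11.34, next 12.16), Pla2g12b (4.65, next 5.06), Fos (6.15, next 7.20) and the insulin and FoxO list (5.32, next 5.60). Saline-antibiotic 6 was high for enteroendocrine genes (2.69, next 2.42). Leptin-antibiotic 3, also high in pancreas genes, was high for Clps (5.24, next 3.44), a colipase gene counted here in the Paneth cell list, for Rnase1 of the exocrine pancreas list (5.07, next 2.48), for the glucocorticoid list (5.54, next 5.26) and for macrophage and dendritic cell genes (2.91, next 2.53). Leptin-antibiotic 2 was low for the class II gene H2-Ob (0.10, next 0.78).

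Leptin-water 10 was high for exocrine pancreas genes (4.44, next −0.28) and low for Nr4a1 (1.13, next 1.95) and for enteric neuron and glia genes (0.34, next 0.93). Leptin-water 13 was low for Cdk7 (4.78, next 4.89).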

How the results depend on the processing

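Under each of the 12 alternatives and 24 omissions of 1 library, 0 genes passed for the difference between arms (lowest adjusted p 0.0865 with all 39 libraries). The number at an unadjusted p under 0.05 was 685 without the 5 pancreas-high libraries and 2273 with all 39 libraries and set as a term, and 705 (without Saline-antibiotic 1) to 1407 (without Saline-antibiotic 3) when 1 library was left out. The split of 579 positive and 464 negative was 501 and 528 with upper quartile scaling, 464 and 566 with no filter, and 464 and 558 without Rn45s. The cause was not tested.

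On antibiotic, the 84 genes became 51 with upper quartile scaling, 410 with DESeq2, 0 without the pancreas-high libraries, 0 with tissue scores as covariates, 548 with all 39 libraries, and 9 (without Leptin-antibiotic 3) to 183 (without Saline-water 13) with 1 library left out. It was 10 without Saline-antibiotic 1, 10 without Leptin-antibiotic 2, 13 without Saline-antibiotic 4 and 18 without Saline-antibiotic 5. The fit of all 39 libraries adds no antibiotic library, so it changes the count on antibiotic only through the shared fit. On water, the 0 became 1 with upper quartile scaling, 5 with DESeq2, 1 with tissue scores, 42 with all 39 libraries, and 0 to 10 (without Saline-water 10) with 1 left out.

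With a replicate block 0 genes passed for the difference (940 at an unadjusted p under 0.05), 1 on antibiotic and 0 on water. Same-numbered libraries showed little sign of pairing, though weak correlation cannot show that they were unpaired. Of 11 same-number pairs, 1 had a correlation of deviations over 0.1 (range −0.215 to 0.59). That pair, number 5 on antibiotic, was the only 1 to correlate best with its own number.

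Of 53 named genes 47 kept their direction throughout and none passed under any alternative. Many were chosen for a low p of this same difference, and the settings share most of their libraries. A kept direction was therefore favoured by the choice and is no separate evidence. Turned were Per1 (−0.05 with voom, −0.05 without the pancreas-high libraries, −0.01 without Saline-water 10 to 0.33 without Saline-water 12), Reg3b (−0.18 with voom, −2.41 with tissue scores, −0.26 with surrogate variables, −0.58 with all 39 libraries, −2.2 without Saline-water 9 to 2.24 without Saline-antibiotic 3), Reg3g (−0.2 with voom, −1.45 with tissue scores, −0.59 with all 39 libraries, −1.54 without Saline-water 9 to 2.01 without Saline-antibiotic 3), and, without the pancreas-high libraries, Clps (0.03), Nr4a1 (0.02) and Rnase1 (0.16). Of 49 lists 27 kept the sign of their median under every alternative, 25 under every omission as well.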

Other observations

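Genes of iron, copper and heme handling were positive in 11 of 18 (median difference 0.111, and 0.029 without Saline-water 10). The 4 at an unadjusted p under 0.05 were all positive (3.54% of all genes were positive at that level). They were Hmox1, which breaks down heme (1.29, SE 0.58), and the proton-coupled folate and heme transporter gene Slc46a1 (0.38). The others were the hypoxia-inducible factor gene Epas1 (0.31) and the copper transporter gene Slc31a1 (0.26). Without the pancreas-high libraries Hmox1 had 1.44, Slc46a1 0.17, Epas1 0.21 and Slc31a1 0.19. For Hmox1 the value came from the water arm, at 3.13 to 25 CPM with saline and 2.66 to 5.25 with leptin, against 1.25 to 2.44 and 1.41 to 2.45 on antibiotic. Insulin and FoxO genes were positive in 18 of 22 (median 0.160, and 0.106 without Saline-antibiotic 1). Foxo1 had 0.26 (SE 0.09), and 0.17 without the pancreas-high libraries. Nuclear-encoded respiratory chain genes were positive in 34 of 42, with a median of 0.073 that was −0.023 without the pancreas-high libraries and 0.013 without Leptin-antibiotic 3. Genes of the unfolded protein and integrated stress response were negative in 21 of 29 (median −0.062, and −0.038 without Leptin-antibiotic 1), with median leptin effects of 0.060 on antibiotic and 0.163 on water. These genes and lists were described after their values were seen, and none of their members passed the adjusted threshold for the difference.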
